A study of Mus musculus with 18 samples.

Results

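The comparison described here set CD4+ conventional dendritic cells of type 2 (cDC2) from the spleen of ADAM10 KO C57BL/6 mice against the same population from wild-type (WT) C57BL/6 mice. It compared 6 of the 18 libraries in the series, chosen by the labels alone: 3 of KO CD4+ cDC2 and 3 of WT CD4+ cDC2. The other 12 libraries (KO and WT, 3 each, of CD4-CD8- cDC2 and of CD8+ cDC1) were part of the same fit. They therefore shaped the filter, the scaling and the spread behind each call. Their own levels entered only where the CD4+ cells were set against them. All cells were sorted alive as positive for CD11c and for MHC class II, and poly(A) RNA was read as 59-base single reads from 50 ng of RNA. The labels used here give neither the promoter that drove the deletion nor the age of the mice. They do not say whether the libraries of a group came from separate animals. A p-value of the main fit is therefore set against the scatter within groups of 3 libraries, pooled over all 6 groups. Some of that scatter may be technical.

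ADAM10 is a membrane-bound metalloprotease that cuts the outer domains of many proteins off the cell surface, and its cut of ligand-bound Notch receptors is the step that lets the Notch intracellular domain reach the nucleus. Conventional dendritic cells take up antigen, process it in endosomes and lysosomes, and show it to T cells on MHC molecules. CD4+ cDC2 of the mouse spleen lie mainly in the bridging channels of the marginal zone, depend on Notch2, and are known for presenting antigen on MHC class II to CD4+ T cells.

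Totals of estimated counts ran from 14332438 to 19557469 in the 6 CD4+ libraries. Principal component 1 of these libraries held 61.6% of the variance and separated KO from WT. On component 2 (12.8%), KO library 2 stood at -41.0, away from KO libraries 1 and 3 at 20.3 and 21.7. The chi-square per gene between pairs of libraries was 16.1 to 31.6 among KO and 9.70 to 11.8 among WT, so no pair agreed within counting error. Levels are given as CPM, a gene's counts relative to the TMM-scaled size of its library, with ± the SD of 3 libraries, and a log2 fold change is KO minus WT with its SE.

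Summed over marker lists of other cells, T cell genes gave 47.1 to 73.7 CPM in KO and 103 to 117 CPM in WT libraries. The sum and its members differed in direction. Of 15 T cell genes tested 4 rose and 2 fell, with a median log2 fold change of 1.404. The fallen members were Cd5 and Tcf7 (log2 fold changes -1.558 ± 0.158 and -1.476 ± 0.161). NK cell genes gave 163 to 228 CPM in KO and 239.6 to 268 CPM in WT libraries, and B cell genes 619.5 to 786 CPM in KO and 572 to 628 CPM in WT libraries. Of 15 B cell genes tested 3 rose and 5 fell. Spib, which rose (log2 fold change 1.31 ± 0.19), is on both the B cell and plasmacytoid DC lists. It made up a large part of both sums in KO libraries, and the plasmacytoid DC gene Siglech was not called. Erythroid genes gave 97.0 to 299 CPM in KO and 92.3 to 125 CPM in WT libraries. This sum holds Tfrc, the transferrin receptor, which fell (log2 fold change -1.46 ± 0.15), while 5 of the 8 members tested rose, hemoglobin genes among them. Neutrophil genes gave 28.1 to 31.1 CPM in KO and 18.2 to 18.4 CPM in WT libraries, higher in every KO library, with S100a8, Camp and Retnlg at 0 in all 6. Most of that sum was Csf3r (log2 fold change 0.75 ± 0.17), the only 1 called of the 3 neutrophil genes tested. Mast cell and basophil genes gave 246.5 to 311 CPM in KO and 486.5 to 514 CPM in WT libraries, with Cpa3, Fcer1a and Ms4a2 at 0 in all 6. Of the 3 members tested, Hdc and Kit fell (log2 fold changes -2.115 ± 0.352 and -0.863 ± 0.112). Kit is also on the list of genes shared by conventional DC. Plasmacytoid DC genes gave 709 to 878 CPM in KO and 439.5 to 485 CPM in WT libraries, platelet genes 2.96 to 4.16 CPM in KO and 3.74 to 3.91 CPM in WT libraries, and stromal and endothelial genes 45.8 to 55.7 CPM in KO and 79.3 to 91.3 CPM in WT libraries. Pecam1, also an adhesion molecule of leukocytes, made up most of the stromal and endothelial sum in WT libraries and fell (log2 fold change -1.78 ± 0.11). Of the 5 genes tested on that list 1 rose and 2 fell. Plasma cell genes gave 115 to 136 CPM in KO and 78.2 to 99.95 CPM in WT libraries. The part of these cells in the results was not tested, and in bulk RNA fewer cells of a type and less RNA per cell cannot be told apart.

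Adam10 (GRCm38 chromosome 9, 70678997 to 70780229, plus strand) had 41.8, 41.6 and 45.9 CPM in KO cells, against 82.9, 80.6 and 129.6 CPM in WT cells. Every KO library lay below every WT library (log2 fold change -1.18 ± 0.22, adjusted p 0.000494), with reads still present in KO cells. The labels do not give which exons were removed, so the remaining reads do not measure protein.

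Markers of the sort were present in both genotypes. Cd4 had 401, 436 and 463 CPM in KO cells, against 450.1, 476 and 403 CPM in WT cells. These ranges overlapped (log2 fold change -0.03 ± 0.17, adjusted p 0.906), while CD4-CD8- cells averaged 4.00 ± 0.851 CPM in KO and 6.4 ± 0.483 CPM in WT. Itgax, which encodes CD11c, averaged 1721 ± 23.4 CPM in KO cells and 1597 ± 70.3 CPM in WT cells (log2 fold change 0.11 ± 0.10, adjusted p 0.45). Sirpa, a surface marker of cDC2, averaged 1101 ± 39.6 CPM in KO cells and 988 ± 12.1 CPM in WT cells (log2 fold change 0.16 ± 0.17, adjusted p 0.523). Cd8a stayed at 1.86 ± 0.708 CPM in KO cells and 1.78 ± 0.186 CPM in WT cells, and Xcr1, a chemokine receptor of cDC1, at 6.07 ± 2.17 CPM in KO cells and 3.43 ± 0.635 CPM in WT cells with overlapping libraries (log2 fold change 0.81 ± 0.30, adjusted p 0.048), a call lost in each fit that left out KO library 2 or 3 or any WT library. Flt3, the cytokine receptor that maintains DC, was slightly higher in KO cells (log2 fold change 0.30 ± 0.07, adjusted p 0.00205; 0.0696 on library totals), whereas Zbtb46, a transcription factor that marks conventional DC, fell to 57.6 ± 4.5 CPM in KO cells, against 85.3 ± 2.32 CPM in WT cells (log2 fold change -0.57 ± 0.07, adjusted p 1.51e-05). Of all genes tested, 18.6% rose and 16.6% fell in KO cells. Beside these shares, the list of genes shared by conventional DC had 6 risen and 7 fallen of 18 members, the list of genes high in cDC2 had 9 risen and 11 fallen of 24, and the list of genes high in cDC1 had 11 risen and 4 fallen of 23.

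Of 13355 genes tested with edgeR's quasi-likelihood test, 4694 were called at an adjusted p under 0.05 (35.1%), 2479 higher in KO (18.6%) and 2215 lower in KO (16.6%). At least a 2-fold change was seen for 944 of the higher and 610 of the lower genes, and at least an 8-fold change for 182 of the higher and 91 of the lower genes. The median log2 fold change over all genes tested was 0.016. Below, "rose" and "fell" mean called in KO relative to WT, and each list count can be read against the 18.6% and 16.6% of all genes. With library totals in place of TMM scaling the median of all genes moved to -0.11, and 35.3% of calls were higher in KO, against 52.8% with TMM. Some genes named in these comparisons lost their calls on TPM or with an offset for transcript length. Ccnd2, Dgat2, Ltbp3, Xcr1 and Zeb2 lost them on every TPM fit and with the offset, Tfrc, Ccl4 and Fcgr4 with the offset and on TMM-scaled TPM, and Irf8, Canx and Flt3 on unscaled TPM. Tnfsf13 lost its call with the offset and on log2(TPM + 0.1), and Csf3r on log2(TPM + 0.1).

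**Figure D1:**
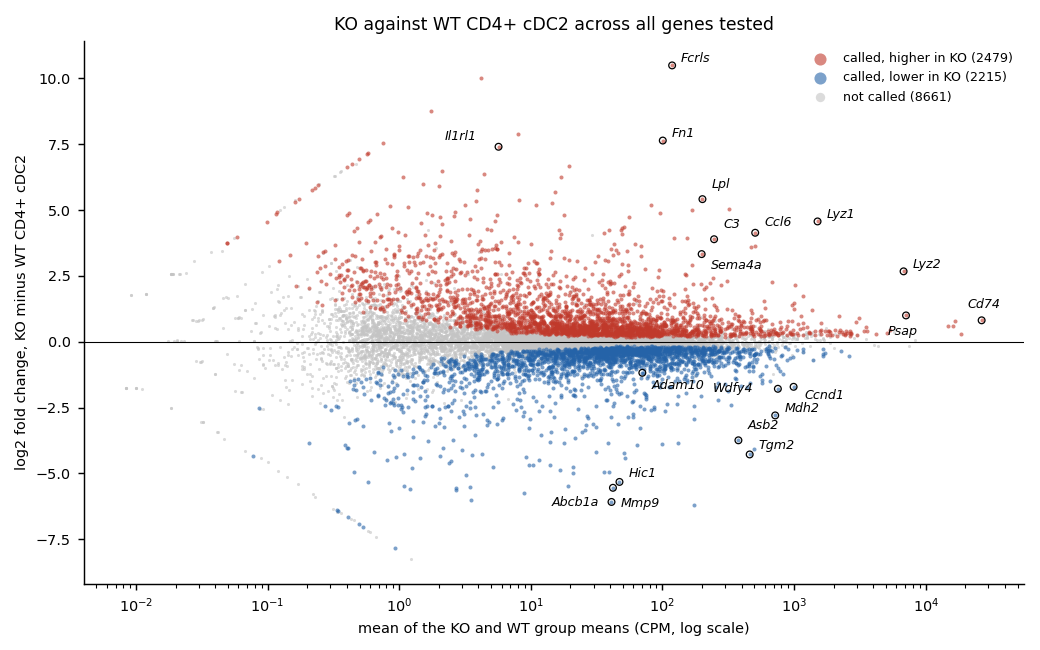
Each point is a gene tested; the x axis gives the mean of the KO and WT group means (CPM, log scale) and the y axis the log2 fold change, KO minus WT. Red points (2479) were called higher in KO, blue points (2215) lower in KO, and grey points were not called; ringed genes are labelled.

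**Figure D2:**
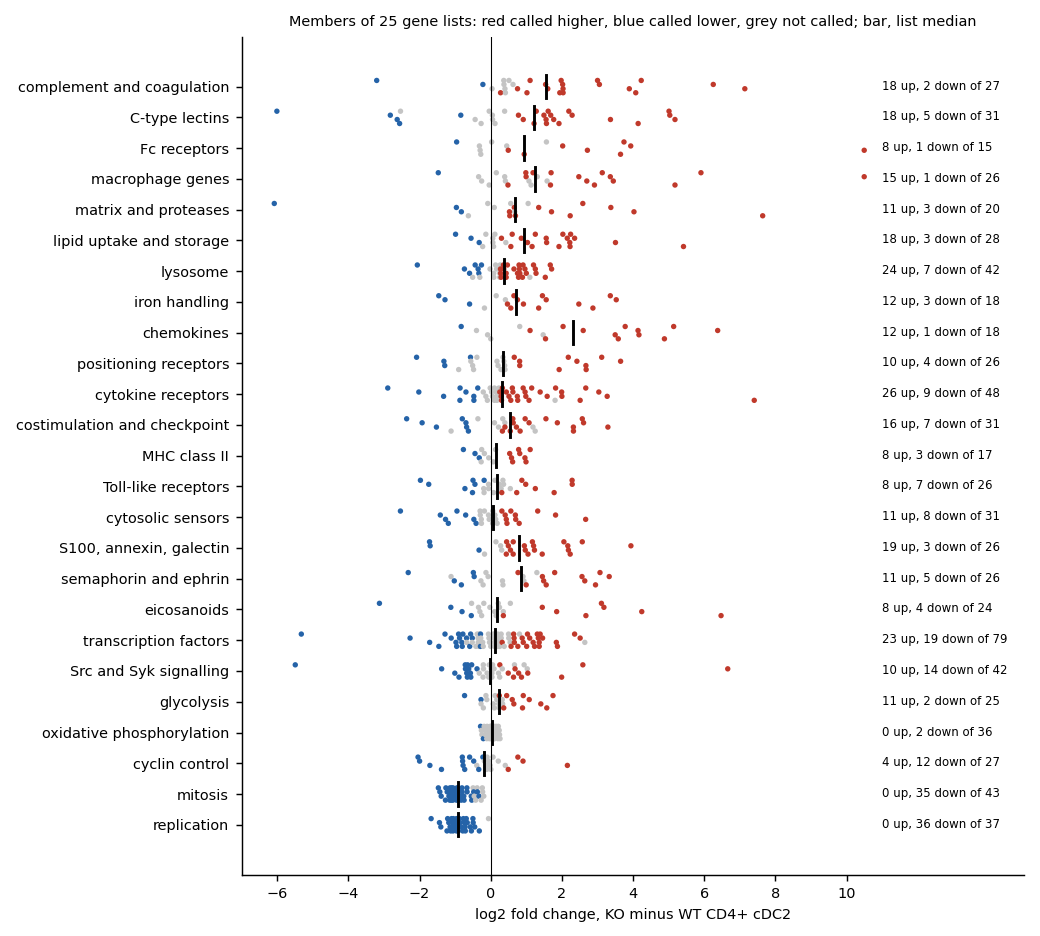
Members of 25 gene lists as points at their log2 fold change, KO minus WT; red were called higher, blue lower, grey not called, and the black bar is the list median. Chemokine, complement, lectin and macrophage lists lie mostly to the right of 0, and the replication and mitosis lists to the left.

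Many receptors that bind sugars on microbes and dying cells rose. Of 31 C-type lectins tested, 18 rose and 5 fell (58.1% and 16.1%; median log2 fold change 1.22). Clec4b1, an activating lectin of myeloid cells, had 76, 55.8 and 74.1 CPM in KO cells, against 3.26, 4.51 and 3.81 CPM in WT cells. Clec12a, an inhibitory lectin that senses dead cells, had 277, 296 and 399 CPM in KO cells, against 71, 68.9 and 72.5 CPM in WT cells. In both genes every KO library was above every WT library (log2 fold changes 4.14 ± 0.24 and 2.19 ± 0.15, adjusted p 1.98e-09 and 9.33e-09). Cd209a, a homologue of human DC-SIGN that binds mannose-rich glycans, had 1109, 1014 and 1243 CPM in KO cells, against 213, 276 and 201 CPM in WT cells, also without overlap (log2 fold change 2.29 ± 0.25, adjusted p 2.41e-06). Mrc1, the mannose receptor, had 149.6, 141 and 190.2 CPM in KO cells, against 7.01, 3.1 and 3.2 CPM in WT cells (log2 fold change 5.18 ± 0.34, adjusted p 6e-09). Clec10a and Mgl2, near-identical lectins for terminal galactose and N-acetylgalactosamine, rose by log2 fold changes of 5.03 ± 0.25 and 5.01 ± 0.28, though how shared reads were divided between them is uncertain. Clec4a4, which encodes the 33D1 antigen used to mark cDC2, went the other way, with 24.2, 18.2 and 20.7 CPM in KO cells, against 121, 131 and 121 CPM in WT cells. All 3 KO libraries were below the WT libraries (log2 fold change -2.56 ± 0.15, adjusted p 1.71e-09).

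Receptors for the constant part of antibodies moved mostly up, with 8 risen and 1 fallen of 15 Fc receptor genes (53.3% and 6.67%; median 0.94). Fcgr3, an activating receptor for IgG, had 134, 109 and 136 CPM in KO cells, against 10.7, 11.1 and 8.34 CPM in WT cells. Fcgr2b, the inhibitory IgG receptor, had 145, 154 and 194 CPM in KO cells, against 23, 25.7 and 26.4 CPM in WT cells. Neither gene overlapped between genotypes (log2 fold change 3.65 ± 0.24, adjusted p 5.9e-09 and log2 fold change 2.72 ± 0.16, adjusted p 1.72e-09). Fcer2a, the low-affinity IgE receptor CD23 and a reported ADAM10 substrate, had 22.2, 35.8 and 35.8 CPM in KO cells, against 2.66, 1.67 and 1.8 CPM in WT cells (log2 fold change 3.93 ± 0.29, adjusted p 2.3e-08). Fcgr1, the high-affinity IgG receptor, rose to 5.69 ± 0.708 CPM in KO cells, against 1.4 ± 0.322 CPM in WT cells (log2 fold change 2.02 ± 0.49, adjusted p 0.00366). Fcgr4 was the only member that fell, to 10.0 ± 4.73 CPM in KO cells, against 19.5 ± 4.89 CPM in WT cells (log2 fold change -0.96 ± 0.35, adjusted p 0.0446), and this call was kept only without KO library 1 among the 6 fits that left out a library. Fcrls, which encodes a scavenger-like relative of the Fc receptors, had 152, 263 and 295 CPM in KO cells, against 0.121, 0.304 and 0 CPM in WT cells, with no overlap.

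Genes typical of macrophages rose in part of the list. Of 26 tested, 15 rose and 1 fell (57.7% and 3.85%; median 1.25), and their summed level was 3456 to 3950 CPM in KO and 2329 to 2444 CPM in WT libraries. Axl, a receptor tyrosine kinase for phosphatidylserine on dying cells, had 229.9, 324 and 330.2 CPM in KO cells, against 40.3, 42.5 and 34.3 CPM in WT cells. Hmox1, which breaks down heme, had 141, 162 and 167 CPM in KO cells, against 36.9, 21.9 and 26 CPM in WT cells. Cd163, the receptor for haptoglobin-hemoglobin complexes, had 10.1, 11.4 and 15.8 CPM in KO cells, against 1.63, 0.457 and 1.6 CPM in WT cells. These 3 genes were separate in all libraries (log2 fold changes 2.91 ± 0.27, 2.48 ± 0.22 and 3.36 ± 0.42; adjusted p 3.73e-07, 1.84e-07 and 8.73e-06). Gpnmb, a glycoprotein of lysosome-rich macrophages, averaged 7.63 ± 1.68 CPM in KO cells and 0.689 ± 0.15 CPM in WT cells (log2 fold change 3.44 ± 0.43, adjusted p 9.03e-06). Adgre1, which encodes F4/80, was not called, with 368 ± 28.1 CPM in KO cells and 467 ± 34.9 CPM in WT cells (log2 fold change -0.34 ± 0.15, adjusted p 0.0971; 0.0199 to 0.0431 and lower by DESeq2, on library totals and in a fit of the CD4+ libraries alone), and Spic, the transcription factor of red pulp macrophages, fell to 5.5 ± 0.696 CPM in KO cells, against 13.4 ± 2.93 CPM in WT cells (log2 fold change -1.29 ± 0.23, adjusted p 0.000274). Monocyte genes gave 12 risen and 5 fallen of 25, and summed to 18580 to 23180 CPM in KO and 6784 to 7616 CPM in WT libraries, a sum in which Lyz2, the lysozyme of myeloid cells, had 10220, 11540 and 13500 CPM in KO cells, against 2054, 1725 and 1746 CPM in WT cells. The fallen monocyte genes were Treml4, Plac8, Ace, Fcgr4 and Cd300a. Their log2 fold changes were -2.46 ± 0.20, -2.41 ± 0.15, -1.61 ± 0.34, -0.96 ± 0.35 and -0.815 ± 0.151. Csf1r, the receptor for macrophage colony-stimulating factor, averaged 752 ± 45.5 CPM in KO cells and 379.7 ± 40.0 CPM in WT cells (log2 fold change 0.98 ± 0.15, adjusted p 8.56e-05). Itgam, the integrin chain CD11b, averaged 279 ± 24.6 CPM in KO cells and 138 ± 5.18 CPM in WT cells (log2 fold change 1.02 ± 0.17, adjusted p 0.000164). Whether cells of another kind contributed was not tested.

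Paired activating and inhibitory receptors moved both ways, with 15 risen and 10 fallen of 41. Cd300lg, a lipid-binding member of the CD300 family, had 98, 88.3 and 93.2 CPM in KO cells, against 4.17, 4.87 and 5.07 CPM in WT cells. Lair1, an inhibitory receptor for collagen, had 25.3, 24 and 29.2 CPM in KO cells, against 145, 140.3 and 157 CPM in WT cells. These genes moved in opposite directions, each without overlap (log2 fold change 4.31 ± 0.22, adjusted p 3.54e-10 for Cd300lg and log2 fold change -2.50 ± 0.17, adjusted p 1.05e-08 for Lair1). Klrb1b, an inhibitory C-type lectin-like receptor, averaged 79.8 ± 24.8 CPM in KO cells and 6.08 ± 0.503 CPM in WT cells (log2 fold change 3.71 ± 0.29, adjusted p 3.86e-08). Siglec1, a sialic acid receptor of marginal metallophilic macrophages, averaged 6.72 ± 1.64 CPM in KO cells and 1.03 ± 0.17 CPM in WT cells (log2 fold change 2.70 ± 0.42, adjusted p 8.89e-05). Trem3, an activating receptor of mouse myeloid cells, fell to 1.15 ± 0.531 CPM in KO cells, against 6.42 ± 1.04 CPM in WT cells (log2 fold change -2.47 ± 0.42, adjusted p 0.000194).

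Genes of the complement and clotting cascades were mostly higher in KO cells, with 18 risen and 2 fallen of 27 (66.7% and 7.41%; median 1.54). Without genes under 5 CPM the list still had 11 risen. C3, the protein on which all complement pathways converge, had 439, 478 and 471 CPM in KO cells, against 31.7, 33 and 28.6 CPM in WT cells. F10, clotting factor X, had 30.0, 36.4 and 30.5 CPM in KO cells, against 1.63, 2.08 and 2.00 CPM in WT cells. Every KO library was above every WT library for both genes (log2 fold changes 3.89 ± 0.24 and 4.07 ± 0.22; adjusted p 3.2e-09 and 8.79e-10). The chains of C1q, which starts the classical pathway, rose together. C1qa averaged 154 ± 8.71 CPM in KO cells and 39.2 ± 4.17 CPM in WT cells. C1qb averaged 133 ± 10.7 CPM in KO cells and 32.4 ± 4.45 CPM in WT cells. C1qc averaged 88.4 ± 6.57 CPM in KO cells and 23 ± 2.86 CPM in WT cells, and the log2 fold changes were 1.98, 2.03 and 1.94. F13a1, the clotting transglutaminase, had 20.1, 37.4 and 42.2 CPM in KO cells, against 0.665, 0.507 and 0.0668 CPM in WT cells (log2 fold change 6.25 ± 0.42, adjusted p 7.89e-09). C3ar1, the receptor for the C3a fragment, averaged 3.32 ± 0.398 CPM in KO cells and 0.406 ± 0.143 CPM in WT cells (log2 fold change 3.00 ± 0.41, adjusted p 2.31e-05). Of the fallen members, C5ar2, the second C5a receptor, had 0.352 ± 0.121 CPM in KO cells and 3.37 ± 0.791 CPM in WT cells (log2 fold change -3.21 ± 0.64, adjusted p 0.000858). Itgb2, the shared integrin chain of complement receptors, averaged 658 ± 22.9 CPM in KO cells and 768 ± 9.1 CPM in WT cells (log2 fold change -0.22 ± 0.06, adjusted p 0.0109; 0.0579 and not called without the filter on low counts).

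Matrix proteins and proteases showed 11 risen and 3 fallen of 20 (55.0% and 15.0%; median 0.67; 6 risen on unscaled TPM). Fn1, fibronectin, had 115, 254 and 233 CPM in KO cells, against 1.57, 0.913 and 0.467 CPM in WT cells. Timp2, an inhibitor of matrix metalloproteases, averaged 84.6 ± 15.1 CPM in KO cells and 8.12 ± 1.15 CPM in WT cells. Emilin2, an elastic fibre glycoprotein, had 78.4, 83.5 and 87 CPM in KO cells, against 16.2, 13 and 12.2 CPM in WT cells. All 3 were higher in each KO library (log2 fold change 7.64 ± 0.50, adjusted p 6.92e-09 for Fn1, log2 fold change 3.37 ± 0.25, adjusted p 2.91e-08 for Timp2, log2 fold change 2.59 ± 0.18, adjusted p 8.66e-09 for Emilin2). Mmp9, a gelatinase, had 0.609, 2.22 and 0.645 CPM in KO cells, against 89.8, 55.2 and 97.7 CPM in WT cells, the widest fall of the list (log2 fold change -6.09 ± 0.35, adjusted p 1.72e-09; -7.0 without KO library 2). Mmp12, the macrophage elastase, averaged 92.1 ± 22.9 CPM in KO cells and 163 ± 15.9 CPM in WT cells (log2 fold change -0.83 ± 0.19, adjusted p 0.00271). Tgfbi, an integrin-binding matrix protein, averaged 286 ± 11.7 CPM in KO cells and 559 ± 53 CPM in WT cells (log2 fold change -0.97 ± 0.12, adjusted p 9.45e-06). Among 39 integrins and adhesion genes 17 rose (6 to 18 under other settings) and 8 fell: Pecam1, the endothelial and leukocyte adhesion molecule CD31, averaged 19.9 ± 0.873 CPM in KO cells and 68.7 ± 3.91 CPM in WT cells (log2 fold change -1.78 ± 0.11, adjusted p 2.91e-09). Cdh17, a cadherin, had 0.166, 0.683 and 0.0717 CPM in KO cells, against 18.3, 21.3 and 13 CPM in WT cells (log2 fold change -5.74 ± 0.60, adjusted p 1.16e-06; -7.05 without KO library 2).

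Lipid uptake and storage genes rose in 18 of 28 cases and fell in 3 (64.3% and 10.7%; median 0.95). Lpl, which releases fatty acids from lipoproteins, had 339.9, 369.9 and 471 CPM in KO cells, against 9.13, 9.34 and 9.14 CPM in WT cells. Cd36, the fatty acid and oxidised lipoprotein receptor, had 63.7, 70.1 and 90.6 CPM in KO cells, against 6.83, 6.19 and 6.74 CPM in WT cells. Plin2, the coat protein of lipid droplets, had 71.5, 72.2 and 68.5 CPM in KO cells, against 13.9, 17.4 and 14 CPM in WT cells. The genotypes were apart in every library for each (log2 fold change 5.42 ± 0.31, adjusted p 1.64e-09 for Lpl, log2 fold change 3.51 ± 0.29, adjusted p 9.91e-08 for Cd36, log2 fold change 2.22 ± 0.09, adjusted p 7.06e-11 for Plin2). Pparg, the nuclear receptor that controls lipid storage, averaged 13.2 ± 0.835 CPM in KO cells and 2.57 ± 0.194 CPM in WT cells (log2 fold change 2.36 ± 0.24, adjusted p 8.78e-07). Abca1, which exports cholesterol, averaged 13.9 ± 2.8 CPM in KO cells and 2.91 ± 0.744 CPM in WT cells (log2 fold change 2.24 ± 0.31, adjusted p 2.25e-05). Fabp5, a fatty acid carrier, averaged 234 ± 2.63 CPM in KO cells and 78.8 ± 10.6 CPM in WT cells (log2 fold change 1.57 ± 0.17, adjusted p 2.42e-06). Dgat2, which makes triglyceride, fell to 3.97 ± 0.905 CPM in KO cells, against 7.84 ± 1.52 CPM in WT cells (log2 fold change -0.99 ± 0.20, adjusted p 0.00111). Cholesterol synthesis did not move as a group: 5 rose and 5 fell of 21 (median -0.014). Those counts were 3 in several fits that left out a library, for rises without KO library 3, WT library 2 or WT library 3 and for falls without KO library 2 or WT library 1.

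Lysosomal genes had 24 risen and 7 fallen of 42 (57.1% and 16.7%; median 0.36; 15 risen on unscaled TPM). Ctsd, the aspartic protease cathepsin D, had 355, 366 and 372 CPM in KO cells, against 111, 119 and 113 CPM in WT cells. Npc2, which moves cholesterol out of lysosomes, had 897, 896 and 843 CPM in KO cells, against 306, 315 and 289.8 CPM in WT cells. Lamp1, a lysosomal membrane protein, had 874, 784 and 916 CPM in KO cells, against 367, 361 and 338 CPM in WT cells. Each of the 3 was higher in all KO libraries (log2 fold changes 1.67 ± 0.13, 1.53 ± 0.07 and 1.27 ± 0.11; adjusted p 4.4e-08, 2.79e-10 and 2.22e-07). Psap, the precursor of the saposins that help digest sphingolipids, averaged 9455 ± 870.5 CPM in KO cells and 4730 ± 68 CPM in WT cells (log2 fold change 1.00 ± 0.07, adjusted p 1.16e-08). Acp5, a tartrate-resistant acid phosphatase, had 53.4, 56 and 43.1 CPM in KO cells, against 195, 238 and 205 CPM in WT cells, a fall in every library (log2 fold change -2.06 ± 0.15, adjusted p 1.53e-08).

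The classical MHC class II genes took a larger share of the RNA in KO cells. Cd74, the invariant chain, together with H2-Aa, H2-Ab1 and H2-Eb1 made up 8.42%, 8.93% and 8.62% of counts in KO libraries, against 5.85%, 5.73% and 5.74% in WT libraries. These shares did not overlap. Cd74 itself had a log2 fold change of 0.81 ± 0.07 (adjusted p 6.95e-08) and H2-Ab1 0.58 ± 0.10 (adjusted p 0.00031). Of the 17 class II genes tested 8 rose and 3 fell (median 0.135). H2-DMb1, a chain of the peptide editor H2-M, had 596, 717 and 665 CPM in KO cells, against 309, 318 and 291 CPM in WT cells (log2 fold change 1.11 ± 0.09, adjusted p 6.82e-08). Ctss, the cathepsin that trims the invariant chain, averaged 2885 ± 157 CPM in KO cells and 1483 ± 68.1 CPM in WT cells (log2 fold change 0.96 ± 0.07, adjusted p 2.54e-08). The fallen members were H2-Ob and H2-Oa, chains of the H2-O inhibitor of H2-M, and H2-Eb2. The call of H2-Oa was kept only without KO library 1 among the fits that left out a library. H2-Ob had 267, 234 and 247 CPM in KO cells, against 352, 323 and 344 CPM in WT cells (log2 fold change -0.44 ± 0.08, adjusted p 0.000331). H2-Eb2 averaged 357 ± 24.7 CPM in KO cells and 609 ± 33.4 CPM in WT cells (log2 fold change -0.77 ± 0.14, adjusted p 0.00043). Ciita, the master activator of class II genes, was not called (log2 fold change 0.07 ± 0.12, adjusted p 0.704).

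MHC class I and related genes had 6 risen and 2 fallen of 25, with 7 fallen without KO library 1 and 1 fallen without KO library 2, KO library 3 or WT library 2. Cd1d1, which presents lipids to natural killer T cells, had 8.13, 8.54 and 8.89 CPM in KO cells, against 32.9, 37 and 35.4 CPM in WT cells, a fall without overlap (log2 fold change -2.04 ± 0.17, adjusted p 9.87e-08). Calr and Canx, chaperones of class I assembly, both rose. Calr averaged 1069 ± 37.1 CPM in KO cells and 699 ± 103 CPM in WT cells (log2 fold change 0.61 ± 0.12, adjusted p 0.000787). Canx averaged 432 ± 29.3 CPM in KO cells and 289.5 ± 22.6 CPM in WT cells (log2 fold change 0.58 ± 0.08, adjusted p 2.95e-05).

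**Figure D3:**
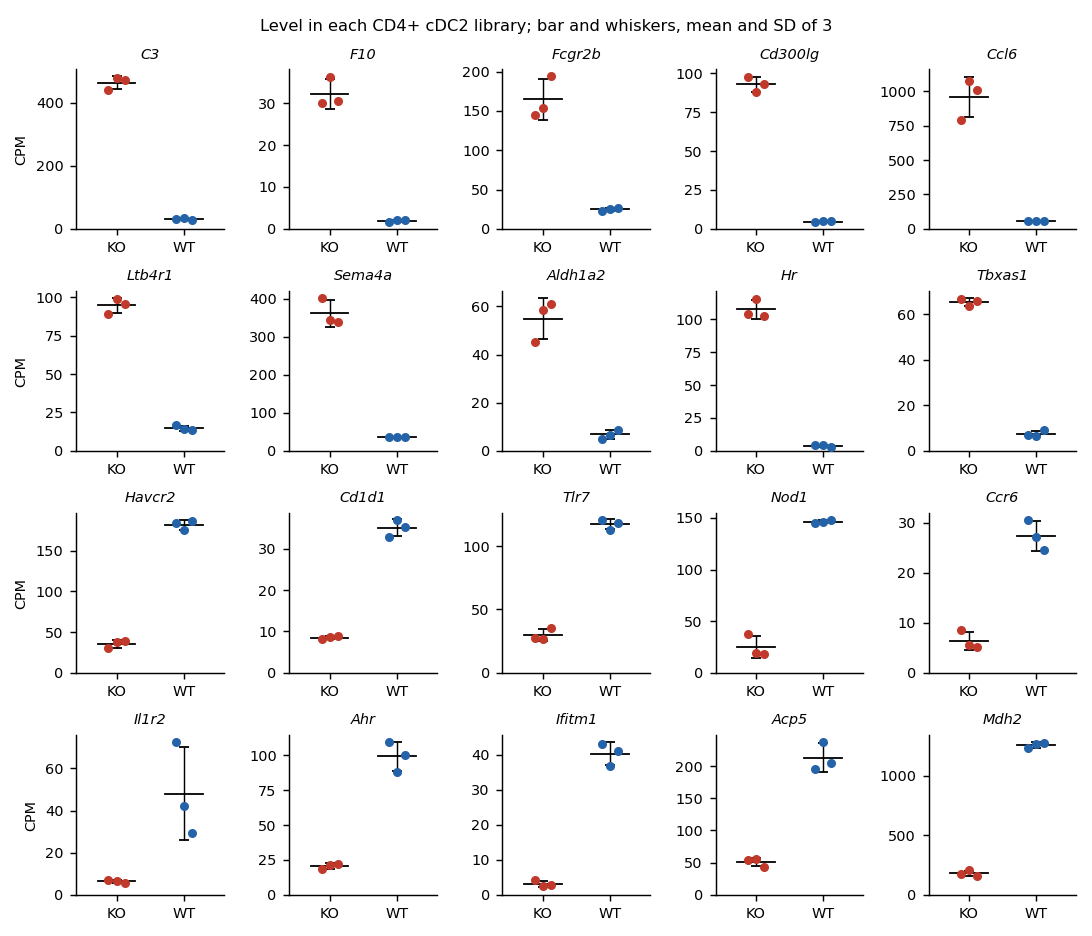
CPM of 20 genes in each CD4+ cDC2 library, KO (red, left) and WT (blue, right), with the mean and SD of 3 libraries. The first 10 genes were higher in all 3 KO libraries and the last 10 lower in all 3.

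Chemokines, the secreted signals that attract cells, mostly rose. Of 18 tested 12 rose and 1 fell (66.7% and 5.56%, median 2.32), and 6 of the 12 that passed a 5 CPM filter rose. Ccl6, a mouse chemokine that attracts myeloid cells through Ccr1, had 794, 1077 and 1008 CPM in KO cells, against 54.1, 53.8 and 55.4 CPM in WT cells. Ccl9, its close relative, had 806, 794 and 1008 CPM in KO cells, against 79.5, 72.3 and 65.8 CPM in WT cells. Neither overlapped between genotypes (log2 fold change 4.14 ± 0.24, adjusted p 1.98e-09 for Ccl6 and log2 fold change 3.58 ± 0.24, adjusted p 8.35e-09 for Ccl9). Ccl2, the main ligand of Ccr2, averaged 14.9 ± 7.13 CPM in KO cells and 1.06 ± 0.601 CPM in WT cells (log2 fold change 3.78 ± 0.47, adjusted p 9.07e-06). Ccl22, which attracts regulatory T cells through Ccr4, averaged 58.5 ± 4.64 CPM in KO cells and 14.2 ± 2.24 CPM in WT cells (log2 fold change 2.03 ± 0.22, adjusted p 2.07e-06). Cxcl13, which draws B cells into follicles, had 10.8, 6.03 and 9.25 CPM in KO cells, against 0.0604, 0.152 and 0.0668 CPM in WT cells (log2 fold change 6.38 ± 0.58, adjusted p 2.37e-07). Ccl4, a chemokine that attracts T cells and monocytes, was the fallen member, at 79.7 ± 25.8 CPM in KO cells and 142 ± 14.7 CPM in WT cells (log2 fold change -0.83 ± 0.29, adjusted p 0.0348), and this call was lost without KO library 1, KO library 2 or any of the WT libraries.

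Receptors that position cells had 10 risen and 4 fallen of 26 (38.5% and 15.4%). Ccr1, which binds Ccl6 and Ccl9, had 24.8, 34.3 and 46.8 CPM in KO cells, against 4.77, 3.7 and 3.67 CPM in WT cells. Ltb4r1, the leukotriene B4 receptor, had 89.4, 99 and 95.8 CPM in KO cells, against 16.7, 14.2 and 13.6 CPM in WT cells. Both were higher in each KO library (log2 fold change 3.12 ± 0.34, adjusted p 2e-06 and log2 fold change 2.67 ± 0.16, adjusted p 1.83e-09). Cmklr1, the chemerin receptor, averaged 11.1 ± 0.724 CPM in KO cells and 2.44 ± 0.335 CPM in WT cells (log2 fold change 2.18 ± 0.34, adjusted p 8.37e-05). Ccr6, the receptor for Ccl20, had 8.52, 5.64 and 5.16 CPM in KO cells, against 30.6, 27.1 and 24.6 CPM in WT cells. Ccr7, which guides mature DC to T cell zones, had 226, 366 and 358 CPM in KO cells, against 983, 767 and 619 CPM in WT cells. These fell in every library (log2 fold change -2.09 ± 0.21, adjusted p 7.47e-07 and log2 fold change -1.32 ± 0.22, adjusted p 0.000162).

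Cytokine receptors had 26 risen and 9 fallen of 48 (54.2% and 18.8%; 11 risen on unscaled TPM with the smaller pseudocount). Of 6 interleukin 1 family receptors and receptor chains in that list, 5 rose and 1, Il1r2, fell. Il1rl1, the IL-33 receptor, had 9.52, 9.45 and 15 CPM in KO cells, against 0, 0.102 and 0.0668 CPM in WT cells (adjusted p 1.8e-08). Il1r2, the decoy receptor for IL-1, had 7.08, 6.55 and 5.66 CPM in KO cells, against 72.4, 42.3 and 29.4 CPM in WT cells (log2 fold change -2.90 ± 0.29, adjusted p 8.52e-07). Neither gene overlapped. Il13ra1, a chain of receptors for IL-4 and IL-13, had 331, 280.2 and 383 CPM in KO cells, against 86.2, 84 and 78.4 CPM in WT cells (log2 fold change 2.00 ± 0.18, adjusted p 1.67e-07). Il12rb2, a chain of the IL-12 receptor, averaged 8.3 ± 0.577 CPM in KO cells and 33.8 ± 3.51 CPM in WT cells (log2 fold change -2.02 ± 0.20, adjusted p 5.8e-07). Il21r, the IL-21 receptor, averaged 63 ± 11.3 CPM in KO cells and 158 ± 14.8 CPM in WT cells (log2 fold change -1.33 ± 0.21, adjusted p 8.73e-05). Csf3r, the receptor for granulocyte colony-stimulating factor, averaged 27.4 ± 0.936 CPM in KO cells and 16.3 ± 0.697 CPM in WT cells (log2 fold change 0.75 ± 0.17, adjusted p 0.00262). Of 32 cytokines 9 rose and 5 fell. Without WT library 3 there were 5 rises, and without KO library 1 or WT library 2 there were 3 falls. Il12b, the p40 chain of IL-12 and IL-23, averaged 2.33 ± 0.469 CPM in KO cells and 7.19 ± 1.22 CPM in WT cells (log2 fold change -1.61 ± 0.31, adjusted p 0.000596). Tnfsf13, the B cell factor APRIL, averaged 12.3 ± 3.53 CPM in KO cells and 4.03 ± 1.23 CPM in WT cells (log2 fold change 1.61 ± 0.47, adjusted p 0.0127). The call of Tnfsf13 was lost without KO library 1, WT library 2 or WT library 3.

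Costimulatory and checkpoint genes had 16 risen and 7 fallen of 31 (51.6% and 22.6%; median 0.55), with 4 fallen without KO library 2 or without WT library 3. Cd84, a self-binding receptor of the SLAM family, had 63.5, 73.7 and 91.2 CPM in KO cells, against 8.28, 7.41 and 7.61 CPM in WT cells. Slamf9, another member of that family, had 44.3, 50.0 and 56.3 CPM in KO cells, against 7.62, 9.23 and 8.41 CPM in WT cells. Both were higher in all KO libraries (log2 fold change 3.29 ± 0.25, adjusted p 2.99e-08 and log2 fold change 2.57 ± 0.16, adjusted p 3.4e-09). Tnfsf9, the ligand of 4-1BB, averaged 66.5 ± 12.8 CPM in KO cells and 13.2 ± 3.15 CPM in WT cells (log2 fold change 2.32 ± 0.23, adjusted p 7.63e-07). Havcr2, which encodes the inhibitory receptor TIM-3, had 29.9, 37.4 and 38.7 CPM in KO cells, against 184, 175 and 187 CPM in WT cells. Cd274, which encodes PD-L1, had 94.7, 67.1 and 75.3 CPM in KO cells, against 225, 217 and 242 CPM in WT cells. Each fell in every KO library (log2 fold change -2.37 ± 0.13, adjusted p 1.3e-09 and log2 fold change -1.53 ± 0.20, adjusted p 1.18e-05). Cd244a, a SLAM receptor, averaged 30.4 ± 3.27 CPM in KO cells and 116 ± 5.69 CPM in WT cells (log2 fold change -1.93 ± 0.12, adjusted p 2.44e-09). Cd86, a ligand of CD28, averaged 48.3 ± 9.24 CPM in KO cells and 84.3 ± 5.47 CPM in WT cells (log2 fold change -0.80 ± 0.13, adjusted p 0.000114). In the DC maturation list 8 rose and 9 fell of 27, and Relb, an NF-kappaB subunit of mature DC, averaged 229 ± 45.9 CPM in KO cells and 495 ± 32.8 CPM in WT cells (log2 fold change -1.11 ± 0.14, adjusted p 6.97e-06).

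Sensors of microbes did not move in a common direction. Toll-like receptor genes had 8 risen and 7 fallen of 26, and 4 fallen without KO library 2 or KO library 3. Tlr7, the endosomal receptor for single-stranded RNA, had 27.1, 26.9 and 35.4 CPM in KO cells, against 120.2, 113 and 118 CPM in WT cells. Tlr8, its neighbour on the X chromosome, had 50.2, 46.5 and 67 CPM in KO cells, against 10.6, 11.3 and 11.6 CPM in WT cells. They went in opposite directions without overlap (log2 fold change -1.98 ± 0.17, adjusted p 1.03e-07 for Tlr7, log2 fold change 2.29 ± 0.18, adjusted p 4.24e-08 for Tlr8). Tlr5, the flagellin receptor, averaged 8.52 ± 0.625 CPM in KO cells and 28.6 ± 3.98 CPM in WT cells (log2 fold change -1.74 ± 0.18, adjusted p 1.28e-06). Cd14, the co-receptor for lipopolysaccharide, averaged 77.6 ± 18.1 CPM in KO cells and 22.6 ± 2.95 CPM in WT cells (log2 fold change 1.78 ± 0.33, adjusted p 0.000411). Irak3, an inhibitor of Toll-like receptor signalling, averaged 16.3 ± 2.13 CPM in KO cells and 3.32 ± 0.634 CPM in WT cells (log2 fold change 2.29 ± 0.22, adjusted p 4.11e-07). Of 31 cytosolic sensors 11 rose (7 without KO library 1) and 8 fell. Nod1, the sensor of a bacterial peptidoglycan fragment, had 37.6, 19.5 and 18.1 CPM in KO cells, against 145, 146 and 148 CPM in WT cells. KO library 1 was the highest of the KO libraries and still far below WT (log2 fold change -2.54 ± 0.28, adjusted p 2.47e-06). Mefv, which encodes pyrin, averaged 22.4 ± 2.67 CPM in KO cells and 59.8 ± 6.36 CPM in WT cells (log2 fold change -1.42 ± 0.25, adjusted p 0.000274). Ifi205, a member of the interferon-inducible p200 family, averaged 12.4 ± 3.81 CPM in KO cells and 1.93 ± 0.531 CPM in WT cells (log2 fold change 2.67 ± 0.25, adjusted p 3.07e-07).

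Interferon-stimulated genes gave 12 risen and 10 fallen of 43 (27.9% and 23.3%; median -0.045), with 5 fallen without KO library 2 and 4 without WT library 2. Neighbouring membrane proteins of that list split: Ifitm1, which restricts virus entry, had 4.2, 2.62 and 2.79 CPM in KO cells, against 43.2, 36.9 and 41 CPM in WT cells, and Ifitm2 had 334, 409.9 and 324 CPM in KO cells, against 146, 122 and 141 CPM in WT cells. The libraries of the genotypes were apart for each (log2 fold change -3.64 ± 0.26, adjusted p 1.8e-08 for Ifitm1, log2 fold change 1.39 ± 0.16, adjusted p 3.78e-06 for Ifitm2). Isg20, an RNA exonuclease, averaged 9.75 ± 0.89 CPM in KO cells and 24.1 ± 2.28 CPM in WT cells (log2 fold change -1.30 ± 0.19, adjusted p 5.23e-05).

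Transcription factors gave 23 risen (12 to 26 under other settings) and 19 fallen of 79 (29.1% and 24.1%). Hic1, a repressor that retinoic acid induces in intestinal immune cells, had 0.664, 4.5 and 1.65 CPM in KO cells, against 139, 88.7 and 48.7 CPM in WT cells. Ahr, the aryl hydrocarbon receptor, had 18.5, 21.3 and 22 CPM in KO cells, against 109, 88.1 and 100.1 CPM in WT cells. Id2, an inhibitor of E proteins that cDC1 need, had 50.0, 50.0 and 55.8 CPM in KO cells, against 164, 198 and 149.7 CPM in WT cells. All 3 fell in every KO library (log2 fold change -5.33 ± 0.58, adjusted p 1.76e-06 and -6.37 without KO library 2 for Hic1, log2 fold change -2.27 ± 0.17, adjusted p 2.61e-08 for Ahr, log2 fold change -1.72 ± 0.14, adjusted p 8.65e-08 for Id2). Among those that rose, Zeb2, which supports the cDC2 and macrophage fates, had 155, 149 and 192 CPM in KO cells, against 59.8, 56.3 and 64.4 CPM in WT cells (log2 fold change 1.46 ± 0.22, adjusted p 5.41e-05). Sox4 averaged 59.4 ± 16.8 CPM in KO cells and 16.2 ± 0.533 CPM in WT cells (log2 fold change 1.87 ± 0.24, adjusted p 9.81e-06). Mitf, a regulator of lysosomal genes, averaged 15.1 ± 1.01 CPM in KO cells and 4.18 ± 0.677 CPM in WT cells (log2 fold change 1.84 ± 0.18, adjusted p 5.07e-07). Spib, an Ets factor, averaged 366 ± 32 CPM in KO cells and 148 ± 8.22 CPM in WT cells (log2 fold change 1.31 ± 0.19, adjusted p 4.03e-05). Bcl11a, a zinc finger factor of DC progenitors, averaged 67.1 ± 2.93 CPM in KO cells and 126 ± 4.81 CPM in WT cells (log2 fold change -0.90 ± 0.11, adjusted p 6.53e-06). Irf8 rose to 223 ± 36.7 CPM in KO cells, against 142 ± 12.7 CPM in WT cells (log2 fold change 0.65 ± 0.15, adjusted p 0.00202). Irf4, needed by cDC2, was not called at 116 ± 8.44 CPM in KO cells and 149 ± 17.1 CPM in WT cells (log2 fold change -0.36 ± 0.16, adjusted p 0.104), nor was Klf4 at 219 ± 40.9 CPM in KO cells and 150.3 ± 24 CPM in WT cells (log2 fold change 0.54 ± 0.24, adjusted p 0.0861). In a fit of the CD4+ libraries alone Irf4 was called lower (adjusted p 0.0259) and Klf4 higher (0.0362). Irf4 was also called lower on library totals (0.035), and Klf4 higher without the filter on low counts (0.0439).

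Signalling genes downstream of Src and Syk kinases had 10 risen and 14 fallen of 42 (23.8% and 33.3%; 4 or 5 risen on unscaled TPM). Blk, a Src family kinase of B cells, had 0.443, 1.25 and 0.788 CPM in KO cells, against 39.1, 29.8 and 44.3 CPM in WT cells. Every KO library lay below every WT library (log2 fold change -5.50 ± 0.31, adjusted p 1.45e-09). Blnk, an adaptor of Syk signalling, averaged 19.8 ± 6.88 CPM in KO cells and 3.28 ± 0.195 CPM in WT cells (log2 fold change 2.59 ± 0.34, adjusted p 1.31e-05). Prkcd, protein kinase C delta, averaged 483 ± 57.6 CPM in KO cells and 235 ± 22.6 CPM in WT cells (log2 fold change 1.04 ± 0.11, adjusted p 1.3e-06). Ptprc, the phosphatase CD45, fell to 1068 ± 138 CPM in KO cells, against 1707 ± 50.3 CPM in WT cells (log2 fold change -0.68 ± 0.10, adjusted p 8.16e-05).

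Semaphorins, ephrins and their receptors had 11 risen (7 to 12 under other settings) and 5 fallen of 26 (42.3% and 19.2%; median 0.84). Sema4a, a membrane semaphorin that costimulates T cells, had 401, 345 and 338 CPM in KO cells, against 37.2, 35.5 and 35.2 CPM in WT cells. Nrp2, a semaphorin co-receptor, had 75.9, 66.4 and 64.1 CPM in KO cells, against 10.4, 6.8 and 7.41 CPM in WT cells. Plxna1, the plexin that DC use in contacts with T cells, had 62.8, 55.7 and 61.9 CPM in KO cells, against 10.7, 11.1 and 8.61 CPM in WT cells. Each was higher in all KO libraries (log2 fold changes 3.33 ± 0.09, 3.07 ± 0.22 and 2.56 ± 0.17; adjusted p 1.33e-12, 1.86e-08 and 6.61e-09).

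Eicosanoid genes had 8 risen and 4 fallen of 24. Tbxas1, thromboxane synthase, had 66.6, 63.4 and 65.9 CPM in KO cells, against 7.01, 6.7 and 9.08 CPM in WT cells. Ptgir, the prostacyclin receptor, had 28.1, 34.8 and 31.2 CPM in KO cells, against 1.93, 1.37 and 1.67 CPM in WT cells. Ptger3, a receptor for prostaglandin E2, had 6.14, 7.06 and 5.02 CPM in KO cells, against 46.5, 60.8 and 52.9 CPM in WT cells. Tbxas1 and Ptgir were higher and Ptger3 lower in every KO library (log2 fold change 3.11 ± 0.12, adjusted p 1.89e-11, log2 fold change 4.24 ± 0.28, adjusted p 6.97e-09 and log2 fold change -3.13 ± 0.20, adjusted p 3.91e-09). Cysltr1, a receptor for cysteinyl leukotrienes, averaged 32.1 ± 6.8 CPM in KO cells and 3.49 ± 0.857 CPM in WT cells (log2 fold change 3.18 ± 0.22, adjusted p 1.4e-08). In the retinoid and vitamin list, 8 rose and 4 fell of 16: Aldh1a2, which makes retinoic acid from retinal, had 45.3, 58.5 and 61.1 CPM in KO cells, against 5.08, 6.75 and 8.54 CPM in WT cells (log2 fold change 3.02 ± 0.26, adjusted p 1.43e-07). Rarg, a retinoic acid receptor, averaged 88.1 ± 4.5 CPM in KO cells and 32.3 ± 1.32 CPM in WT cells (log2 fold change 1.45 ± 0.16, adjusted p 2.87e-06). Among ABC transporters 11 rose (4 on unscaled TPM with the smaller pseudocount) and 4 fell (2 without KO library 2) of 22. Abca9 had 231, 239.8 and 306 CPM in KO cells, against 46.2, 47.4 and 41.7 CPM in WT cells (log2 fold change 2.52 ± 0.22, adjusted p 1.28e-07). Abcb1a, the drug efflux pump P-glycoprotein, had 1.49, 2.79 and 0.86 CPM in KO cells, against 83.9, 87.5 and 76 CPM in WT cells (log2 fold change -5.55 ± 0.37, adjusted p 7.9e-09).

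ADAM proteases and their partners had 12 risen (5 on unscaled TPM) and 5 fallen, Adam10 among the fallen, of 23 tested. Adam15 averaged 86.8 ± 10.2 CPM in KO cells and 11.2 ± 0.469 CPM in WT cells (log2 fold change 2.95 ± 0.12, adjusted p 4.61e-11). Adam19, a meltrin, averaged 54.1 ± 1.82 CPM in KO cells and 123 ± 15.9 CPM in WT cells (log2 fold change -1.19 ± 0.13, adjusted p 2.62e-06). Transcripts of 40 reported ADAM10 substrates rose in 27 cases and fell in 7 (67.5% and 17.5%; 16 risen on unscaled TPM plus 1). Lrp1, an endocytic receptor, averaged 212 ± 20.4 CPM in KO cells and 72 ± 10.3 CPM in WT cells (log2 fold change 1.56 ± 0.24, adjusted p 9.21e-05). Epcam, an adhesion molecule, averaged 1.36 ± 0.225 CPM in KO cells and 10.7 ± 1.77 CPM in WT cells (log2 fold change -2.98 ± 0.26, adjusted p 1.89e-07). These are RNA levels and do not measure shedding. The Wnt and TGF-beta list had 12 risen (5 to 13 under other settings) and 7 fallen of 33, with Ltbp3, which binds latent TGF-beta, at 16.9 ± 2.8 CPM in KO cells and 2.1 ± 0.151 CPM in WT cells (log2 fold change 3.00 ± 0.24, adjusted p 5.1e-08) and Smad7, the inhibitor of TGF-beta signalling, at 19.1 ± 3.88 CPM in KO cells and 71 ± 9.72 CPM in WT cells (log2 fold change -1.89 ± 0.14, adjusted p 1.73e-08).

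Nearly all genes of the DNA replication list fell in KO cells. Of 37 members, 36 fell (97.3%; median log2 fold change -0.93), and the remaining member, Pold1, the catalytic subunit of DNA polymerase delta, stayed at 60.6 ± 10.6 CPM in KO cells and 63.5 ± 9.93 CPM in WT cells with overlapping libraries (log2 fold change -0.06 ± 0.13, adjusted p 0.749). The MCM proteins form the ring-shaped helicase that unwinds DNA at replication origins. Mcm2 had 62, 50.3 and 45.8 CPM in KO cells, against 109, 109 and 132 CPM in WT cells. Mcm5 had 88.5, 72.3 and 64 CPM in KO cells, against 144, 157 and 168 CPM in WT cells. Mcm6 had 70.7, 69.1 and 77.1 CPM in KO cells, against 117, 132 and 160.4 CPM in WT cells. Each KO library lay below each WT library for all 6 subunits, whose log2 fold changes ran from -1.14 ± 0.12 for Mcm2 to -0.84 ± 0.10 for Mcm3. Rrm2, the regulated subunit of the enzyme that makes deoxynucleotides, had 27.2, 14.7 and 19.1 CPM in KO cells, against 55.1, 67.9 and 72.2 CPM in WT cells. Dut, which removes dUTP, had 17.5, 17.9 and 16.2 CPM in KO cells, against 44.3, 52.4 and 43.7 CPM in WT cells. Both were lower in all KO libraries (log2 fold change -1.68 ± 0.24, adjusted p 3.47e-05 and log2 fold change -1.44 ± 0.13, adjusted p 2.95e-07). Cdc45, a partner of the helicase, averaged 5.83 ± 1.95 CPM in KO cells and 15.5 ± 2.35 CPM in WT cells (log2 fold change -1.40 ± 0.20, adjusted p 2.76e-05). Prim1, the primase, averaged 8.46 ± 0.498 CPM in KO cells and 19.9 ± 3.22 CPM in WT cells (log2 fold change -1.23 ± 0.13, adjusted p 1.34e-06).

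Of 43 mitosis genes 35 fell and the other 8 were not called (81.4% fell; median -0.91). On TPM or with an offset for transcript length 19 to 21 of them fell, and the cause of that difference was not tested. Mki67, the proliferation antigen Ki-67, had 27.5, 18.4 and 17.8 CPM in KO cells, against 42, 47.4 and 60.1 CPM in WT cells. Ccna2, the S phase and mitotic cyclin A2, had 22.4, 12.3 and 15.8 CPM in KO cells, against 32.3, 39.7 and 49.3 CPM in WT cells. Kif23, a kinesin of cell division, had 11.3, 5.86 and 7.53 CPM in KO cells, against 19.3, 20.9 and 28.8 CPM in WT cells. The genotypes did not overlap for these genes (log2 fold change -1.23 ± 0.20, adjusted p 0.000138, log2 fold change -1.26 ± 0.20, adjusted p 0.000104 and log2 fold change -1.47 ± 0.23, adjusted p 7.5e-05). KO library 1 was the highest of the KO libraries for all 3. Among 27 genes of cyclin control 12 fell and 4 rose (44.4% and 14.8%): Ccnd1, cyclin D1, had 491, 454 and 447 CPM in KO cells, against 1485, 1713 and 1363 CPM in WT cells (log2 fold change -1.71 ± 0.11, adjusted p 7.3e-09). Ccnd2, cyclin D2, had 31.9, 15.1 and 15.3 CPM in KO cells, against 78.8, 110.2 and 69.2 CPM in WT cells (log2 fold change -2.04 ± 0.37, adjusted p 0.000383). Cdkn1a, the cell cycle inhibitor p21, averaged 125 ± 21 CPM in KO cells and 66.7 ± 11.9 CPM in WT cells (log2 fold change 0.91 ± 0.18, adjusted p 0.000848).

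**Figure D4:**
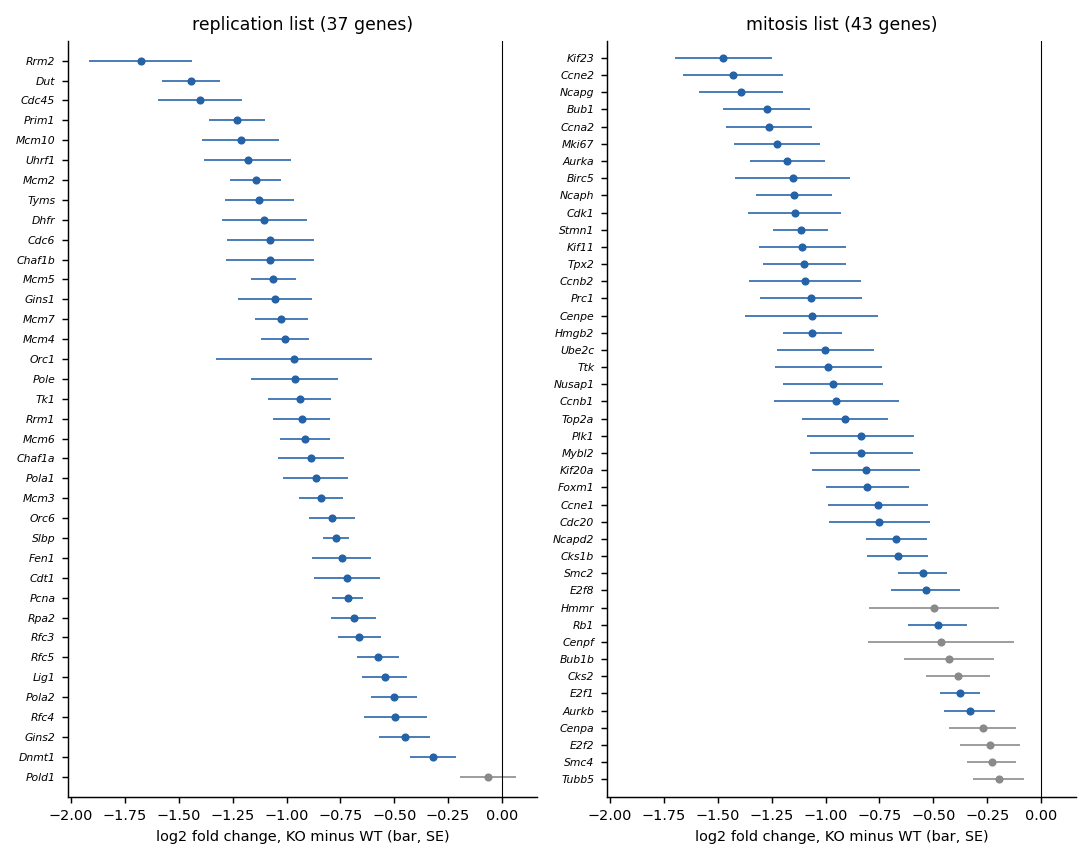
Log2 fold change, KO minus WT, with its SE for each member of the replication list (left, 37 genes) and the mitosis list (right, 43 genes); blue genes were called lower in KO and grey genes were not called. All members lie left of 0, and Pold1 is the replication gene nearest to it.

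Replication genes are known to share binding sites for E2F transcription factors near their start sites, so their promoters are shown with letters of that type. The 250 bases before the RefSeq start of Mcm5 (GRCm38.p6, chr8:75109259-75109508, plus strand), Mcm6 (chr1:128359706-128359955, minus strand) and Mcm7 (chr5:138171884-138172133, minus strand) are given 5′ to 3′ on the gene's strand. Capitals mark matches to TTTCCCGC, TTTGGCGC or TTTCGCGC on either strand, where neighbouring matches may overlap.
Mcm5: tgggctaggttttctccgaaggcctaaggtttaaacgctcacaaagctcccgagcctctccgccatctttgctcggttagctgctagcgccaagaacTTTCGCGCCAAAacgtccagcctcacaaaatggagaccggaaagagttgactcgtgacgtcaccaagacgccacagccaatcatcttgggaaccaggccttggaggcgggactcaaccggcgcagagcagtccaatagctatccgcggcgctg
Mcm6: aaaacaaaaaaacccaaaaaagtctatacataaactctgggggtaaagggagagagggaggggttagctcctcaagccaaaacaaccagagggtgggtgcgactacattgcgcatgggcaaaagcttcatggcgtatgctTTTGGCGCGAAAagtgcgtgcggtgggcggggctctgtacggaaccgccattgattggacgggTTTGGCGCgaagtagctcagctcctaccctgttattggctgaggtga
Mcm7: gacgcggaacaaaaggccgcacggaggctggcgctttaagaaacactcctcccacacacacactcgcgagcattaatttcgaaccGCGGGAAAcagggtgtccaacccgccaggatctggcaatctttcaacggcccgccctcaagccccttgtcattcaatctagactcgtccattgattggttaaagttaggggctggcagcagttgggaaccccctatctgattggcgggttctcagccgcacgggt
Mcm5 had 2 overlapping matches, Mcm6 had 3 and Mcm7 had 1 in these windows. Mcm3 had 2 matches that lay after the start, and Mcm2 had none in its window. The promoter of Mcm4 is not described here. Of 32 replication genes with a RefSeq promoter (86.5% of the list), 10 held at least 1 such match in the 250 bases before to 50 bases after the start (31.2%), against 117 of 1725 for genes called lower (6.78%), 360 of 9756 for all genes tested (3.69%) and 515 of all 27025 promoters of the same length (1.91%). For the mitosis list 4 of 34 held a match (11.8%), and for genes called higher 45 of 1917 (2.35%). With TTTCCCGC alone the shares were 15.6% for the replication list, 4.17% for genes called lower, 2.16% for all genes tested and 1.11% for all promoters. They were 2.94% for the mitosis list and 1.51% for genes called higher. A match describes letters and is not evidence of binding.

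Glycolysis genes had 11 risen and 2 fallen of 25 (44.0% and 8.0%; median 0.24; 1 fallen without KO library 2, KO library 3, WT library 1 or WT library 2). Hk3, a hexokinase of myeloid cells, averaged 32.6 ± 7.49 CPM in KO cells and 9.66 ± 1.94 CPM in WT cells (log2 fold change 1.75 ± 0.21, adjusted p 5.3e-06). Pfkp, a phosphofructokinase, had 112, 86.5 and 83.7 CPM in KO cells, against 32.4, 31.4 and 31 CPM in WT cells, without overlap (log2 fold change 1.57 ± 0.14, adjusted p 1.36e-07). Slc2a3, a glucose transporter, fell to 117 ± 6.78 CPM in KO cells, against 196 ± 3.19 CPM in WT cells (log2 fold change -0.74 ± 0.17, adjusted p 0.00322). Of 36 oxidative phosphorylation genes 2 were called, both lower in KO, and 0 to 4 fell and 0 to 3 rose when settings or libraries were changed. The 13 mitochondrially encoded genes took 2.0% ± 0.347 of counts in KO and 1.94% ± 0.152 in WT libraries. Mdh2, mitochondrial malate dehydrogenase, had 177, 205 and 159.8 CPM in KO cells, against 1229, 1268 and 1277 CPM in WT cells, a fall in every library (log2 fold change -2.80 ± 0.10, adjusted p 1.53e-11).

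Iron handling genes had 12 risen and 3 fallen of 18 (66.7% and 16.7%; median 0.70). Steap3, a ferric reductase of endosomes, had 10.1, 9.9 and 7.88 CPM in KO cells, against 1.09, 0.71 and 0.601 CPM in WT cells (log2 fold change 3.53 ± 0.28, adjusted p 6.71e-08). Ftl1, the ferritin light chain, averaged 4061 ± 489 CPM in KO cells and 2148 ± 76.6 CPM in WT cells (log2 fold change 0.92 ± 0.10, adjusted p 1.6e-06). Tfrc, the transferrin receptor, had 23, 18.8 and 28.7 CPM in KO cells, against 67.9, 63.1 and 62.6 CPM in WT cells, a fall without overlap (log2 fold change -1.46 ± 0.15, adjusted p 1.03e-06). In the oxidase and redox list 7 rose and 4 fell of 22. Cybb, the catalytic chain of the phagocyte NADPH oxidase, averaged 1404 ± 192 CPM in KO cells and 596 ± 22 CPM in WT cells (log2 fold change 1.23 ± 0.21, adjusted p 0.000216), while Ncf4 and Rac2, cytosolic parts of that oxidase, both fell. Ncf4 averaged 44.4 ± 5.76 CPM in KO cells and 147 ± 10.6 CPM in WT cells (log2 fold change -1.72 ± 0.10, adjusted p 1.5e-09). Rac2 averaged 212 ± 3.9 CPM in KO cells and 389.6 ± 39.8 CPM in WT cells (log2 fold change -0.88 ± 0.09, adjusted p 8.02e-07). The unfolded protein response list had 13 risen (7 to 15 under other settings) and 2 fallen (0 without KO library 1 or WT library 1, and 1 without KO library 2 or WT library 3) of 25, with Pdia4, a disulfide isomerase, at 119 ± 4.66 CPM in KO cells and 64.3 ± 4.6 CPM in WT cells (log2 fold change 0.88 ± 0.12, adjusted p 1.52e-05). Ribosomal protein genes had 28 risen of 40 (70.0%; 9 on unscaled TPM), at 7.59% ± 0.344 of counts in KO and 6.65% ± 0.122 in WT libraries.

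S100 proteins, annexins, galectins and other cytoskeletal and calcium-binding genes listed with them had 19 risen and 3 fallen of 26 (73.1% and 11.5%; median 0.79). Ahnak, a very large membrane scaffold protein that binds annexin complexes, averaged 289 ± 12.6 CPM in KO cells and 18.9 ± 5.29 CPM in WT cells. Vim, the intermediate filament vimentin, had 1902, 1549 and 1545 CPM in KO cells, against 361, 372 and 382 CPM in WT cells. Lgals3, galectin 3, had 356, 411 and 368 CPM in KO cells, against 82, 79.1 and 80.5 CPM in WT cells. All KO libraries were higher for these (log2 fold change 3.94 ± 0.24, adjusted p 3.85e-09, log2 fold change 2.17 ± 0.09, adjusted p 9.18e-11 and log2 fold change 2.23 ± 0.11, adjusted p 4.57e-10). The widest falls were in S100a11, with 119 ± 18.4 CPM in KO cells and 394 ± 30.5 CPM in WT cells (log2 fold change -1.72 ± 0.13, adjusted p 3.78e-08), and Anxa6, with 207 ± 21.6 CPM in KO cells and 676 ± 33.6 CPM in WT cells (log2 fold change -1.70 ± 0.08, adjusted p 1.13e-10).

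Several of the widest changes were in genes not described above. Hr, a histone demethylase known from hair follicles, had 104, 116 and 103 CPM in KO cells, against 4.53, 4.21 and 3.14 CPM in WT cells. Capg, which caps actin filaments, had 165, 226 and 169 CPM in KO cells, against 6.59, 6.54 and 5.67 CPM in WT cells. Dcstamp, a membrane protein of cell fusion in osteoclasts and macrophages, had 25.8, 26.9 and 32.1 CPM in KO cells, against 1.33, 0.355 and 0.534 CPM in WT cells. Each rose without overlap (log2 fold change 4.75 ± 0.28, adjusted p 1.91e-09, log2 fold change 4.89 ± 0.25, adjusted p 5.5e-10 and log2 fold change 5.26 ± 0.44, adjusted p 9.18e-08, with 5.99 for Dcstamp without WT library 1). Tgm2, tissue transglutaminase, had 49.3, 56.1 and 29.4 CPM in KO cells, against 880.3, 947 and 799.8 CPM in WT cells. Dnase1l3, which digests DNA in extracellular particles, had 64.6, 64.8 and 37.1 CPM in KO cells, against 901, 1071 and 837 CPM in WT cells. Asb2, part of a ubiquitin ligase that targets filamins, had 42, 66 and 49.4 CPM in KO cells, against 709.9, 771 and 629 CPM in WT cells. These fell in each KO library (log2 fold change -4.28 ± 0.26, adjusted p 3.04e-09, log2 fold change -4.07 ± 0.33, adjusted p 5.88e-08 and log2 fold change -3.74 ± 0.18, adjusted p 2.24e-10). Wdfy4, which cDC1 need for cross-presentation, had 340.5, 342 and 333 CPM in KO cells, against 1080, 1041 and 1385 CPM in WT cells (log2 fold change -1.79 ± 0.15, adjusted p 1.45e-07). Rgs2, a regulator of G protein signalling, averaged 501 ± 11.6 CPM in KO cells and 1162 ± 49.6 CPM in WT cells (log2 fold change -1.21 ± 0.11, adjusted p 2.57e-07). Slc8a2, a sodium-calcium exchanger, had 2.77, 3.19 and 0.717 CPM in KO cells, against 70.7, 80.2 and 59.5 CPM in WT cells (log2 fold change -4.93 ± 0.48, adjusted p 1.56e-06). Ncald, the calcium sensor neurocalcin delta, averaged 1.1 ± 0.331 CPM in KO cells and 32.4 ± 2.27 CPM in WT cells (log2 fold change -4.86 ± 0.31, adjusted p 5.64e-09).

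Transcripts of 8 genes were under 0.5 CPM in all 3 WT libraries and at least 5 CPM in all 3 KO libraries, among them Cxcl13, Dok2, Fcrls, Igf2r, Il1rl1, Klrb1a and Slc27a3. The reverse held for 4 genes: Dnajc22, Serpinb2, Serpinb7 and Sez6l. At a limit of 0.2 CPM, 3 genes (Cxcl13, Il1rl1 and Slc27a3) and 0 genes met the rule. Slc27a3, a fatty acid transport protein family member, had 9.96, 20.1 and 17.7 CPM in KO cells, against 0.181, 0 and 0 CPM in WT cells. Serpinb2, a protease inhibitor of activated macrophages, had 0.332, 0.455 and 0.287 CPM in KO cells, against 10.8, 12.6 and 6.34 CPM in WT cells. Dnajc22, a J domain protein, had 0.0553, 0.342 and 0 CPM in KO cells, against 7.43, 6.44 and 6.54 CPM in WT cells. The genotypes were well apart for these genes in all 6 libraries (adjusted p 4.18e-07, 3.04e-08 and 2.08e-06). Hdac1-ps, a processed pseudogene whose reads may be shared with its parent gene, had 4.92, 15.7 and 4.3 CPM in KO cells, against 0, 0 and 0 CPM in WT cells, so no fold is given.

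The KO effect in CD4+ cells was tested against that in CD4-CD8- cDC2, which have their own WT libraries. The difference was called for 503 of 13355 genes (3.77%), 333 positive (2.49%) and 170 negative (1.27%), and for 316 genes without KO library 3 and 305 without WT library 2. Of the calls 66.2% were positive, and 82.2% on library totals, 92.0% on log2(TPM + 0.1) and 89.4% on log2(TPM + 1). Dok2, an inhibitory adaptor of tyrosine kinase signalling, had 33.6, 42.5 and 38.9 CPM in KO and 0.302, 0.406 and 0.401 CPM in WT CD4+ cells, but 15.8, 19.3 and 27.1 CPM in KO and 23.3, 15.4 and 9.06 CPM in WT CD4-CD8- cells. Only the CD4+ groups were apart, and the difference of log2 effects was 6.29 ± 0.55, adjusted p 1.44e-05. Igf2r, the receptor that carries lysosomal enzymes, averaged 6.69 ± 0.474 CPM in KO and 0.26 ± 0.0672 CPM in WT CD4+ cells, and 5.13 ± 0.663 CPM in KO and 10.2 ± 1.77 CPM in WT CD4-CD8- cells, where the KO mean was lower (difference of log2 effects 5.67 ± 0.33, adjusted p 1.08e-07). On log2(TPM + 1) neither this difference nor the change of Igf2r in CD4+ cells was called (adjusted p 0.731 and 0.278), nor was either on TMM-scaled TPM (0.797 and 0.293). Klrb1a, a C-type lectin-like receptor, averaged 7.43 ± 1.53 CPM in KO and 0.18 ± 0.0769 CPM in WT CD4+ cells and 7.34 ± 2.33 CPM in KO and 6.45 ± 2.42 CPM in WT CD4-CD8- cells (difference of log2 effects 5.15 ± 0.52, adjusted p 8.04e-05). Gpr4, a proton-sensing receptor, averaged 2.39 ± 1.04 CPM in KO and 26.1 ± 3.02 CPM in WT CD4+ cells and 6.59 ± 1.56 CPM in KO and 12.3 ± 3.07 CPM in WT CD4-CD8- cells (difference of log2 effects -2.54 ± 0.36, adjusted p 0.00064). Within CD4-CD8- cells 11.4% of all genes tested fell. T cell genes moved with this comparison, since 13 of 15 on that list had a positive difference (7 without KO library 3 or WT library 2) and 14 of 15 fell in CD4-CD8- cells, among them Cd3e, a chain of the T cell receptor complex, with 5.18 ± 4.03 CPM in KO and 31.1 ± 13.3 CPM in WT CD4-CD8- cells. For NK cell genes 9 of 12 fell in CD4-CD8- cells. For the replication list the difference was called for 1 of 37 genes and for the mitosis list for 0 of 43 by edgeR, and by DESeq2 for 1 and 0. Without KO library 1 it was called for 3 and 0 by edgeR. At an unadjusted p under 0.05 of the main edgeR fit the counts were 15 and 6. They were 21 and 13 without KO library 1, and 4 and 4 without KO library 3 or WT library 3. The share of all genes at this limit is not given, so these counts have no background. Few of these genes thus passed the adjusted limit, which does not show that the falls were equal in the cDC2 populations. The median log2 fold changes were nevertheless lower in CD4+ than in CD4-CD8- cells, at -0.93 and -0.543 for replication and -0.911 and -0.64 for mitosis. In CD4-CD8- cells 29 of 37 replication and 23 of 43 mitosis genes fell.

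Against CD8+ cDC1 the difference was called for 2969 genes (22.2%), 1689 positive (12.6%) and 1280 negative (9.58%). It was negative for 33 of 37 replication genes and 37 of 43 mitosis genes. Within CD8+ cells 7.06% of all genes tested rose and 8.71% fell. In CD8+ cells 3 of 37 replication and 15 of 43 mitosis genes rose. Mki67 averaged 56.4 ± 10.8 CPM in KO and 40.5 ± 3.66 CPM in WT CD8+ cells. Top2a, the DNA topoisomerase of dividing cells, averaged 46.2 ± 12.8 CPM in KO and 87 ± 16.9 CPM in WT CD4+ cells and 94.2 ± 16.2 CPM in KO and 63.8 ± 7.19 CPM in WT CD8+ cells. On TPM or with a length offset the negative differences numbered 23 to 25 for replication and 17 to 21 for mitosis. Lysosomal genes had 24 positive and 1 negative of 42, and chemokines 10 positive of 18. T cell genes moved with this comparison too, with 11 positive of 15 (4 on each TPM fit). In CD8+ cells 5 of 15 T cell genes and 7 of 12 NK cell genes fell. The DC maturation list, split in CD4+ cells, had 15 positive and 1 negative of 27, and in CD8+ cells 20 of its members fell and 1 rose. Ccr7 averaged 152 ± 13.8 CPM in KO and 695 ± 134 CPM in WT CD8+ cells.

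Single genes that differed most from CD8+ cells included Fn1, at 200.3 ± 74.8 CPM in KO and 0.984 ± 0.555 CPM in WT CD4+ cells and 1.34 ± 0.868 CPM in KO and 0.973 ± 0.35 CPM in WT CD8+ cells (difference of log2 effects 7.18 ± 1.16, adjusted p 0.000241). Cxcl13 averaged 0.108 ± 0.135 CPM in KO and 0.215 ± 0.0669 CPM in WT CD8+ cells (difference of log2 effects 7.29 ± 0.99, adjusted p 5.25e-05). Gpr82, an orphan receptor, averaged 3.72 ± 2.55 CPM in KO and 20.4 ± 2.83 CPM in WT CD4+ cells and 15 ± 3.78 CPM in KO and 4.28 ± 0.695 CPM in WT CD8+ cells, higher in KO there (difference of log2 effects -4.25 ± 0.59, adjusted p 6.61e-05; -4.99 without KO library 1). Sash1, a scaffold protein, averaged 12.6 ± 2.75 CPM in KO and 123 ± 5.4 CPM in WT CD4+ cells and 14.2 ± 3.65 CPM in KO and 11.7 ± 1.64 CPM in WT CD8+ cells (difference of log2 effects -3.57 ± 0.27, adjusted p 1.25e-07). Cdh17 averaged 0.882 ± 0.606 CPM in KO and 1.18 ± 0.326 CPM in WT CD8+ cells (difference of log2 effects -5.34 ± 0.89, adjusted p 0.000318; -6.64 without KO library 2).

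**Figure D5:**
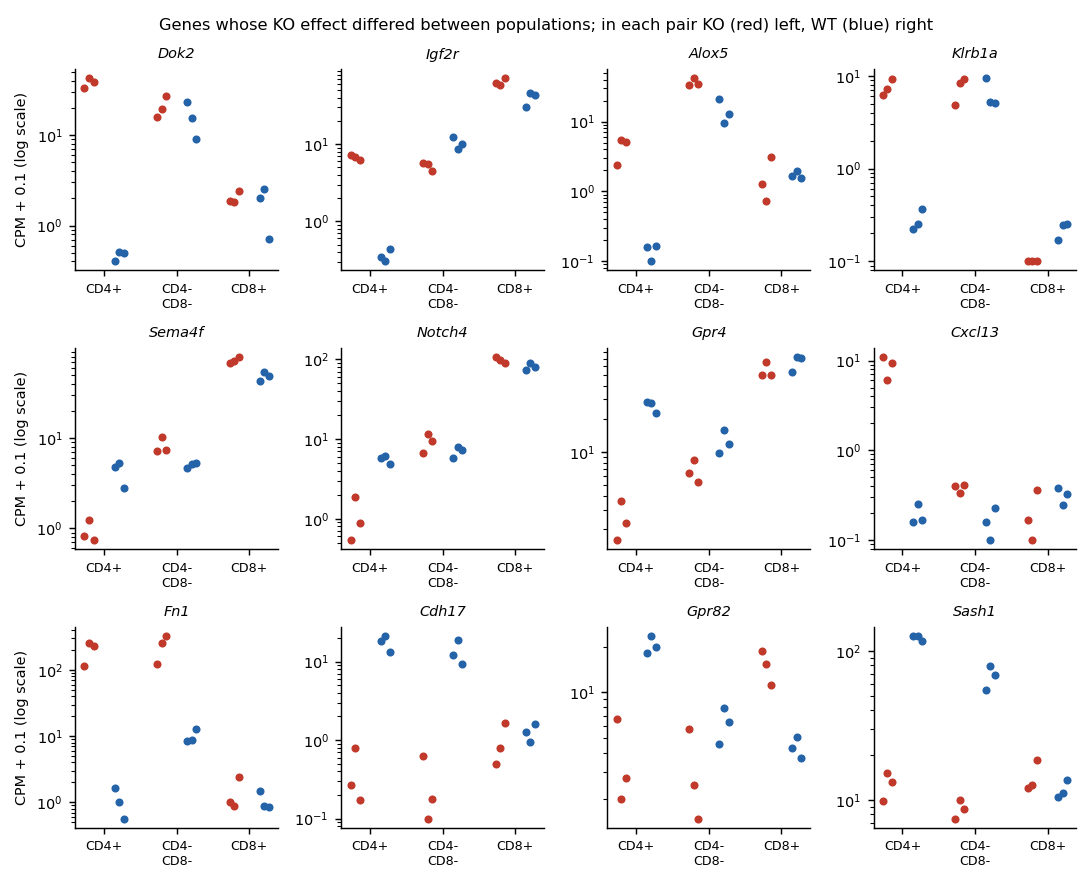
CPM plus 0.1 on a log axis for 12 genes in each library of CD4+, CD4-CD8- and CD8+ cells, with KO (red) left of WT (blue) in each pair. Dok2, Igf2r and Klrb1a were apart between genotypes in CD4+ cells with WT near the floor, and Sash1, Cdh17 and Fn1 were close between genotypes in CD8+ cells.

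The share of called genes near Adam10 was set beside that of all genes. Within 5 Mb on either side 22 of 59 tested genes were called (37.3%), within 10 Mb 44 of 109 (40.4%) and within 20 Mb 82 of 225 (36.4%), against 35.1% of all genes and 34.0% on chromosome 9.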

How the data were processed

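Poly(A) RNA of 18 libraries (6 groups of 3) was quantified per transcript by the authors, and FastQC 0.11.8, Salmon 0.14.1 and the build GRCm38 are named in the submitters' processing notes. The deposited estimated counts of 117135 transcripts were summed per gene name over 24559 names and rounded to whole numbers, leaving out 152 transcripts without a name (0.0669% to 0.17% of counts). The deposited TPM values, made by the authors and holding no depth, served as an alternative only. Library totals over all groups ran from 12358884 to 19557469, and counts of reads without molecular identifiers carry more than counting error.

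Genes passing edgeR's filterByExpr (13355) were fitted across all 18 libraries with edgeR 4.0.16 (TMM scaling, quasi-likelihood F test, 12 residual degrees of freedom) in R 4.3.3, with Benjamini-Hochberg adjustment over all genes tested. The difference of KO effects between populations was an interaction contrast of the same model. Alternatives were DESeq2 1.42.0, limma 3.58.1 on log2(TPM + 1) or log2(TPM + 0.1), other scaling, filters and samples, an offset for effective transcript length, a replicate block, and leaving out each CD4+ library. The fit was also run on simulated data, whose outcome is not reported here and is no measure of its accuracy on these libraries. Percent shares are of all counts of a library, computed here from the deposited counts. Promoters came from RefSeq (GRCm38.p6) and gene positions from GENCODE M21 (GRCm38), which held 99.7% of the gene names.

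The comparison, its 57 gene lists and the choice of members were made with earlier results of these data known. Genes were named by fixed rules: Adam10; the 25 largest rises and falls and the 10 largest shifts in CPM, among called genes with at least 5 CPM in the higher group and no overlap; up to 5 called members of a list by size of change; near-absent genes; 6 genes per direction for each difference between populations; and a set of cDC and macrophage genes. Not all of these are described. List members beyond those 5, among them members that went against their list, were chosen after their values were seen. Results of some genes are not reported here.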

Additional observations from a re-analysis of the deposited data

Results flagged for a closer look

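The results below are genes whose KO effect in CD4+ cells differed from that in another population by edgeR's interaction test, as the difference of log2 fold changes with its SE and adjusted p. Against CD4-CD8- cells the 6 largest positive differences were those of Dok2 (6.29 ± 0.55, adjusted p 1.44e-05), Igf2r (5.67 ± 0.33, adjusted p 1.08e-07), Trbc1 (5.3 ± 0.85, adjusted p 0.0018), Klrb1a (5.15 ± 0.52, adjusted p 8.04e-05), Alox5 (5.14 ± 0.99, adjusted p 0.00653), and Skap1 (5.01 ± 1.06, adjusted p 0.0118). Trbc1, a constant region of the T cell receptor, averaged 2.12 ± 1.21 CPM in KO and 0.321 ± 0.127 CPM in WT CD4+ cells and 3.13 ± 2.21 CPM in KO and 19.4 ± 8.5 CPM in WT CD4-CD8- cells. Skap1, an adaptor of T cells, averaged 0.76 ± 0.602 CPM in KO and 0.21 ± 0.0662 CPM in WT CD4+ cells and 1.34 ± 0.998 CPM in KO and 13.3 ± 6.3 CPM in WT CD4-CD8- cells, and its call was lost without KO library 3 (4.22). T cell marker genes moved with the same groups, and their part in these values was not tested. Alox5, which starts leukotriene synthesis, averaged 4.22 ± 1.69 CPM in KO and 0.0424 ± 0.0369 CPM in WT CD4+ cells and 36.2 ± 4.54 CPM in KO and 14.4 ± 5.88 CPM in WT CD4-CD8- cells, and its difference was 4.54 without WT library 2. On the TPM fits the differences of Alox5 and Igf2r were not called (adjusted p 0.114 to 0.98), nor was that of Alox5 with the length offset (0.108).

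The 6 largest negative differences against CD4-CD8- cells were those of Sema4f (-3.04 ± 0.33, adjusted p 8.04e-05), Notch4 (-2.84 ± 0.39, adjusted p 0.000548), Serpinb2 (-2.7 ± 0.49, adjusted p 0.00412), Gpr4 (-2.54 ± 0.36, adjusted p 0.00064), Mmp9 (-1.96 ± 0.48, adjusted p 0.0307), and 2900026A02Rik (-1.86 ± 0.46, adjusted p 0.0329). Sema4f averaged 0.834 ± 0.266 CPM in KO and 4.21 ± 1.29 CPM in WT CD4+ cells and 8.16 ± 1.71 CPM in KO and 4.94 ± 0.368 CPM in WT CD4-CD8- cells. On each TPM fit and with the length offset the differences of Sema4f, Serpinb2, Mmp9 and 2900026A02Rik were not called (adjusted p 0.0671 to 0.774), with -0.38 for Sema4f and -0.67 for Serpinb2 on log2(TPM + 1). That of Notch4 was not called on TMM-scaled TPM or log2(TPM + 1) (0.0612 and 0.0628). Without KO library 2 the differences of Notch4 and Mmp9 were -3.59 and -2.87. The call of Mmp9 was lost without KO library 1, KO library 3, WT library 1 or WT library 3, and that of 2900026A02Rik without KO library 3 or any WT library.

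Against CD8+ cells the largest positive differences were those of Hdac1-ps (12.23 ± 2.64, adjusted p 0.00364), Klrb1a (9.31 ± 1.37, adjusted p 0.00018), Galnt9 (7.87 ± 1.43, adjusted p 0.00102), Cxcl13 (7.29 ± 0.99, adjusted p 5.25e-05), Pde2a (7.25 ± 2.21, adjusted p 0.0286), and Fn1 (7.18 ± 1.16, adjusted p 0.000241). The fits of Hdac1-ps, Klrb1a, Galnt9 and Pde2a rest on a group with all libraries at 0, so their sizes depend on the fit and are not bounds. Galnt9, an enzyme that starts O-linked glycans, averaged 10.3 ± 2.23 CPM in KO and 0.418 ± 0.122 CPM in WT CD4+ cells. The difference of Pde2a was not called on TMM-scaled TPM or log2(TPM + 1) (adjusted p 0.147 and 0.243).

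The largest negative differences against CD8+ cells were those of Cdh17 (-5.34 ± 0.89, adjusted p 0.000318), Cltrn (-4.76 ± 1.15, adjusted p 0.00776), Dhrs9 (-4.29 ± 0.64, adjusted p 0.000123), Gpr82 (-4.25 ± 0.59, adjusted p 6.61e-05), Gpr161 (-3.95 ± 0.98, adjusted p 0.00741), and Sash1 (-3.57 ± 0.27, adjusted p 1.25e-07). Cltrn, collectrin, was at 0 in all KO CD4+ libraries, so its size is no bound either, and its difference was not called on the TPM fits (adjusted p 0.152 to 0.392). Dhrs9, a retinol dehydrogenase, averaged 0.36 ± 0.303 CPM in KO and 1.59 ± 0.968 CPM in WT CD4+ cells and 13.1 ± 1.06 CPM in KO and 2.96 ± 0.842 CPM in WT CD8+ cells. Without KO library 2 the differences of Cdh17 and Gpr161 were -6.64 and -5.41. Without KO library 1 those of Dhrs9 and Gpr82 were -5.17 and -4.99, and without WT library 2 that of Dhrs9 was -3.66.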

How the results depend on the processing

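The 4694 calls between KO and WT CD4+ cells became 3121 with limma on TMM-scaled TPM, an alternative chosen after seeing the data, and 3093 with a length offset. Of the calls, 4579 were kept in direction by DESeq2, 2941 with the offset and 2909 on TMM-scaled TPM. Library totals gave 5142 calls with 35.3% higher in KO, log2(TPM + 1) 3384 with 33.5% and log2(TPM + 0.1) 3368 with 34.2%, and the median of all genes moved to -0.11, -0.09 and -0.13. Leaving out 1 CD4+ library gave 3933 to 4351 calls. A fit of the CD4+ libraries alone gave 4281 calls of 12581 genes tested. Of the 4592 main calls it tested, 4035 were kept in direction. For the difference from CD4-CD8- cells the 503 calls became 331, 251 and 190 on TMM-scaled TPM, log2(TPM + 0.1) and the offset, 316 without KO library 3, 305 without WT library 2, and 305 to 548 over all such fits. DESeq2 gave 720 calls and log2(TPM + 1) 387. The positive share, 66.2%, became 82.2% on library totals, 92.0% on log2(TPM + 0.1) and 89.4% on log2(TPM + 1). For the difference from CD8+ cells the 2969 calls became 1927, 1635, 1631 and 1803 on TMM-scaled TPM, log2(TPM + 0.1), log2(TPM + 1) and the offset, and 2500 to 2890 without a library. The cause of these shifts was not tested. At 0.2 CPM 3 genes were near absent in WT only and 0 in KO only, and TTTCCCGC alone was in 15.6% of replication promoters.

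Replicate numbers are shared by the groups. Deviations of same-numbered KO and WT CD4+ libraries correlated by -0.052, 0.097 and 0.139, so the numbers were not taken as a pairing of genotypes. KO libraries 2 and 3, but not 1, correlated best with the WT library of their own number. Whether same-numbered libraries of different populations within a genotype were paired was not tested, and the interaction tests did not model such a pairing. With the replicate block 4975 genes were called, and 587 and 3226 for the differences from CD4-CD8- and CD8+ cells. With the block Irf4 was called lower (adjusted p 0.0437) and Klf4 higher (0.0487). In the CD4+ libraries alone with the block Irf4 and Adgre1 were called lower (0.031 and 0.0498), and Itgb2, Fcgr4, Flt3, Xcr1 and Dhrs9 were not called (0.0825, 0.0529, 0.0557, 0.102 and 0.0932).

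Some uncalled genes changed sign: Cd4 had log2 fold changes of 0.02 without KO library 1 and 0.02 without WT library 2. Cd8a had -0.03 on library totals and on log2(TPM + 0.1), 0.00 on log2(TPM + 1) and -0.20 to 0.32 when 1 library was left out (-0.20 without KO library 2). Ciita had -0.06 on library totals, -0.11 and -0.10 on log2(TPM + 0.1) and log2(TPM + 1), and -0.05 (without KO library 1) to 0.14 when 1 was left out. Itgax had -0.02 on library totals, -0.18 on TMM-scaled TPM and with the offset, and -0.33 on both TPM fits. Sirpa had -0.04 on TMM-scaled TPM, -0.20 on both TPM fits and -0.05 with the offset. Pold1 had 0.08 on TMM-scaled TPM, 0.12 with the offset, 0.04 without KO library 3, 0.05 without WT library 3 and down to -0.21 without KO library 1. The difference of Alox5 had -0.25 on TMM-scaled TPM and -0.08 on log2(TPM + 1).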

Other observations

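Genes of apoptosis had 9 risen and 6 fallen of 25, with 5 risen without WT library 3 and 3 fallen without KO library 2. Immediate early genes had 5 risen and 3 fallen of 27, with 3 risen without WT library 2, and 0 fallen without KO library 1 or WT library 1 and 1 without KO library 2. T cell genes in CD4+ cells had 4 risen and 2 fallen of 15 while their summed level was lower in KO libraries, and the rises numbered 1 or 2 without any library but KO library 1. Erythroid genes had 5 risen and 1 fallen of 8, and plasmacytoid DC genes had 5 risen of 12.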
